A study of Rattus norvegicus with 31 samples.

Results

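Blood samples differ in how much RNA they carry from natural killer (NK) cells and cytotoxic T cells, and 31 arrays of rat blood cells were ordered here by that content. For each array a cytotoxic score was taken as the mean log ratio of 4 genes, Prf1, Gzmb, Nkg7 and Klrd1, each measured by 1 probe. The 10 arrays with the highest scores are called rich, the 10 with the lowest poor, and the 11 between them middle, so 20 of the 31 arrays enter the comparison. These 4 genes chose the arrays and are given below as a description only. Each array read the RNA of 1 adult rat offspring, taken from the mononuclear fraction of its blood (PBMC), which holds lymphocytes and monocytes. The CR and CR-L groups descend from dams with 20% less food during days 1 to 12 of pregnancy, out of 16 rats mated in all. CR offspring (11 samples) had no further treatment, and CR-L offspring (13 samples) received leptin on successive days of suckling until postnatal day 21, about 5 times the intake from milk, at doses that went from 1.0 to 43.8 ng. Young of unrestricted dams form the group titled WT (7 samples), which the protocol calls controls. All offspring then ate chow freely for 4 months, and both female and male animals were used. The labels give neither litter nor sex for a sample, and with 31 samples from at most 16 litters some share a dam, so p-values over samples could be too small. 

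NK cells and cytotoxic T cells kill infected or transformed cells by releasing granules. Perforin, the product of Prf1, opens the target membrane, and granzymes, which are serine proteases, enter and start cell death. NK cells read their targets through activating and inhibitory receptors, many of them lectin-like and encoded in the NK gene complex (Klr and Ly49 genes), and they depend on interleukin 15, which signals through the beta chain encoded by Il2rb. B cells, the other lymphocytes of PBMC treated below, carry surface immunoglobulin and show antigen on MHC class II molecules.

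All values are log2 ratios of an individual sample (red) over a reference pool made from 5 samples per group (green), and a difference is the mean of rich arrays minus that of poor arrays, ± its SE. In PBMC RNA, fewer cells of a type and less RNA per cell cannot be told apart. Median red intensity was 73.7 to 91.8 on rich and 69.8 to 88.4 on poor arrays, over a local background of 27 to 30.5. The share of red spots well above background was 58.8% to 65.0% on rich and 57.5% to 63.2% on poor arrays. WT replicate 6, a middle array, was brighter than all other arrays (235, 83.6%). Markers of the labelled cells were well above background on all 31 arrays for 18 of 18 T cell, 18 of 18 B cell and 12 of 14 monocyte genes measured. Markers of cells that a mononuclear preparation should hold few of were detected as well, with 10 of 11 platelet, 16 of 20 erythroid and 9 of 14 granulocyte genes well above background on every array. No 2 arrays matched closely enough to be 1 library (highest correlation between arrays 0.784). Of 8 slides, 4 (numbers 2, 3, 4 and 6) held arrays of both classes.

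The score, on a log2 scale, lay between 0.173 and 0.674 in rich arrays (median 0.277) and between -0.617 and -0.126 in poor ones (median -0.30). The highest were CR-L replicates 3 and 7, and the lowest CR-L replicate 10 and CR replicate 11. The classes border on the middle arrays with almost no gap. The last rich array stood at 0.173 and the first middle one at 0.160, and the last middle array at -0.120 beside the first poor one at -0.126. Prf1 ranged from 0.060 to 0.52 in rich and from -0.90 to -0.080 in poor arrays, and Gzmb from 0.0012 to 0.96 and from -0.79 to -0.046. These ranges do not overlap, which the choice of arrays favours. Nkg7, a granule membrane protein, ranged from 0.19 to 0.67 in rich and from -0.90 to 0.20 in poor arrays. Klrd1, the CD94 chain of an NK receptor, ranged from -0.21 to 0.62 and from -0.55 to 0.14, and overlapped most.

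The classes cut across the study groups. Rich arrays were 1 WT, 4 CR and 5 CR-L, poor arrays 4 WT, 3 CR and 3 CR-L, and middle arrays 2 WT, 4 CR and 5 CR-L. The median score was -0.154 in WT, -0.0285 in CR and 0.158 in CR-L, and each group held both rich and poor arrays. Group and class are thus partly mixed.

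**Figure D1:**
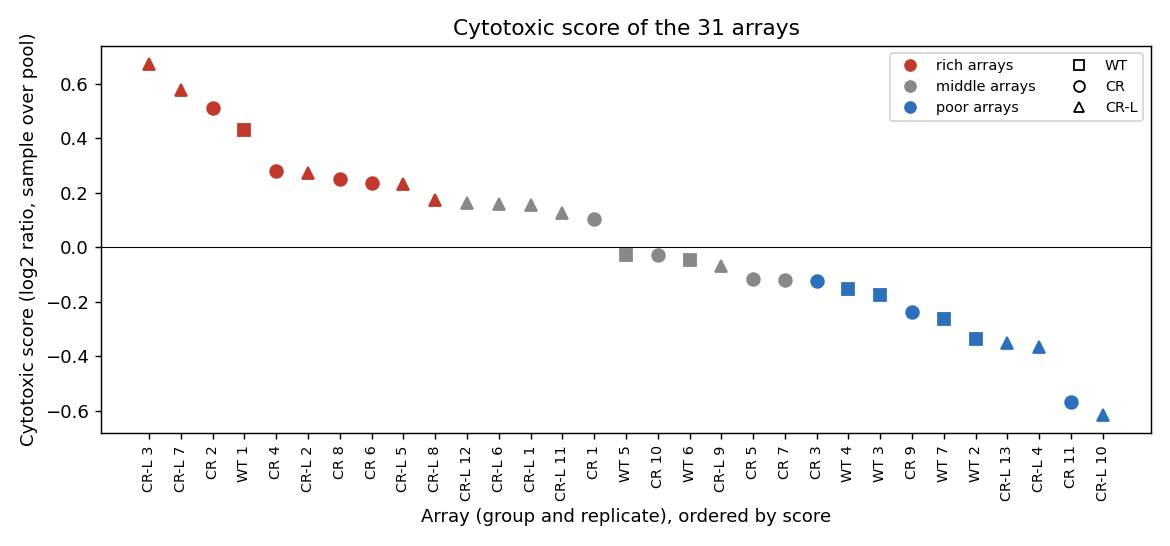
Cytotoxic score (log2 ratio of sample over pool, y axis) of the 31 arrays ordered by score (x axis), with colour for class and symbol for study group. Rich arrays lie from 0.173 to 0.674 and poor arrays from -0.617 to -0.126, and both ends hold CR-L arrays.

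Across 22181 features outside the score, 156 (0.703%) differed between rich and poor arrays at an adjusted p under 0.05 (limma, Benjamini-Hochberg), 109 higher (0.491%) and 47 lower (0.212%) in rich arrays. The higher features included 3 granzymes, 3 NK receptors and the cytokine receptor gene Il2rb, and the lower ones 3 listed MHC class II genes. Of the 156, 101 carry a gene name and 55 do not. Because the arrays were picked by 4 genes of NK cells and cytotoxic T cells, this test asks which other genes went with them on the same arrays. Over 7 lists of NK and cytotoxic genes, 100 genes were measured besides the score genes. Of these, 14 were higher in rich arrays and 0 lower, which is 14.0% against 0.491% of all features, and 73 of the 100 differences lay above 0 (median 0.143), against 48.8% above 0 and a median of -0.00249 over all features. At an unadjusted p under 0.05 stood 3421 features (15.4%).

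The count of 156 moved with single arrays and with the design. Without WT replicate 1 it was 285, without CR replicate 2 268, without CR replicate 3 360 and without CR-L replicate 8 343. It was 65 without CR replicate 4 or CR replicate 6, 68 without CR-L replicate 13, 69 without WT replicate 3, 70 without CR-L replicate 2, 77 without CR-L replicate 7, 80 without WT replicate 2 and 81 without WT replicate 4. It was 86 without CR replicate 8, 89 without CR replicate 9, 96 without CR-L replicate 3, 99 without WT replicate 7 and 101 without CR-L replicate 4. Of the 156, 51 higher and 6 lower features passed in each of the 20 fits that left out 1 array. With the study group as a covariate 31 passed (30 higher, 1 lower), and with slide as a fixed block 46 (44 higher, 2 lower). Leaving Nkg7 or Klrd1 out of the score gave 517 and 288, and the share of red spots well above background as a covariate gave 1515.

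Granzymes of the killer granule led the named genes that passed. Gzma, granzyme A (probe on chromosome 2, 44490165 to 44490224, rn4), ranged from -0.083 to 0.81 in rich arrays (median 0.20) and from -1.72 to -0.0012 in poor ones (median -0.69). Only CR-L replicates 5 and 8 among rich arrays reached into the range of the poor, and CR-L replicate 10 was lowest. The difference was 0.97 ± 0.17, or 1.96-fold (adjusted p = 0.0101). Gzmk, granzyme K, beside it on chromosome 2 (44589378 to 44589437), lay from -0.048 to 0.62 in rich and from -1.69 to -0.23 in poor arrays, with no overlap (0.85 ± 0.14, adjusted p = 0.00900). Gzmm, granzyme M (chromosome 7, 11526548 to 11526607), ranged from 0.062 to 0.65 and from -0.97 to -0.081, again with no overlap (0.64 ± 0.11, adjusted p = 0.00900). Non-overlap of the classes was rare. It held for 15 of 22181 features (0.0676%), with rich above poor in 14 (0.0631%) and below in 1 (0.00451%).

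The rest of the killing machinery did not pass. Of 17 measured genes of the granule and killing list, the 3 granzymes alone passed, and the list's median difference was 0.0554. Faslg, the death ligand of killer lymphocytes, ranged from 0.057 to 1.12 in rich and from -0.53 to 0.50 in poor arrays (0.43 ± 0.16, adjusted p = 0.199).

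The start regions of the 3 granzyme genes are shown because these genes lead the list. Runx3, a transcription factor of killer cells, was higher too (0.27 ± 0.054), and a link between it and these genes was not tested. The letters TGTGGT, the core bound by Runx proteins, were searched on both strands in the 250 bases before each gene's start (RefSeq, GRCr8) and are in capitals as ACCACA, which is that core on the opposite strand.
Gzma: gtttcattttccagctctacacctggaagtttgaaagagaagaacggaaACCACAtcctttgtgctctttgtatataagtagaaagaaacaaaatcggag
Gzmk: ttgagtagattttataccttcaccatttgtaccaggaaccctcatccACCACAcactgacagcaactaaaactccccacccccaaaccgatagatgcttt
Gzmm: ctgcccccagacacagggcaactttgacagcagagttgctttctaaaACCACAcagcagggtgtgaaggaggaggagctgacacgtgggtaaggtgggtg
These windows lie at chr2:46485697-46485796, chr2:46582143-46582242 and chr7:10667298-10667397, all on the minus strand and each read 5′ to 3′ along its gene. The letters also occur in 14.1% of 27457 promoters of the table. Of 56 features higher in rich arrays with a promoter there, 9 (16.1%) hold them, a share near that background.

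Of NK receptors, 25 genes of the list were measured, 23 of them above 0 (median 0.268), and 3 passed. Klrb1a, an NKR-P1 receptor that marks rat NK cells (chromosome 4, 165637803 to 165637862), ranged from 0.076 to 0.82 in rich arrays (median 0.34) and from -0.94 to -0.11 in poor ones (median -0.32). Every rich array stood above every poor one, and the difference was 0.74 ± 0.095, or 1.67-fold (adjusted p = 0.000601). Ncr1, the activating receptor NKp46, ranged from -0.43 to 0.62 in rich and from -0.98 to -0.15 in poor arrays (0.57 ± 0.12, adjusted p = 0.0237). CR-L replicate 5 was the 1 rich array within the range of the poor ones for Ncr1. Klrb1c, another NKR-P1 receptor, was higher by 0.31 ± 0.069 (adjusted p = 0.0384). Members of this family are similar in sequence, so a probe may read more than 1 of them.

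The largest differences of the receptor list did not pass. Klrc3, of the NKG2 family that pairs with CD94, ranged from -0.997 to 1.27 in rich arrays (median 0.71) and from -2.10 to 0.86 in poor ones (median -0.50). Its difference was 1.17 ± 0.37 (adjusted p = 0.136), with CR-L replicates 2 and 8 low among rich arrays and WT replicate 2 high among poor ones. Klre1 (1.15 ± 0.29, adjusted p = 0.0713), Klri2 (0.84 ± 0.22, adjusted p = 0.0781) and Klra22, a Ly49 receptor (0.61 ± 0.16, adjusted p = 0.0871), were spread in the same way. Klrg1, an inhibitory receptor of mature NK cells, stood at 0.33 ± 0.085 (adjusted p = 0.0725).

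Klrk1, which encodes the activating receptor NKG2D, stood near 0. It ranged from -0.44 to 0.73 in rich arrays (median 0.080) and from -0.26 to 0.40 in poor ones (median 0.076), and the difference was 0.026 ± 0.12 (adjusted p = 0.939). The same held for the CD8 co-receptor of cytotoxic T cells. Cd8a ranged from -0.51 to 0.29 in rich and from -0.36 to 0.22 in poor arrays (0.063 ± 0.088, adjusted p = 0.776), and Cd8b stood at 0.13 ± 0.11 (adjusted p = 0.594). The signs of Klrk1 and Cd8a turned in some other analyses, with no call in either direction. A p that misses the threshold does not show that a gene was equal in both classes.

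**Figure D2:**
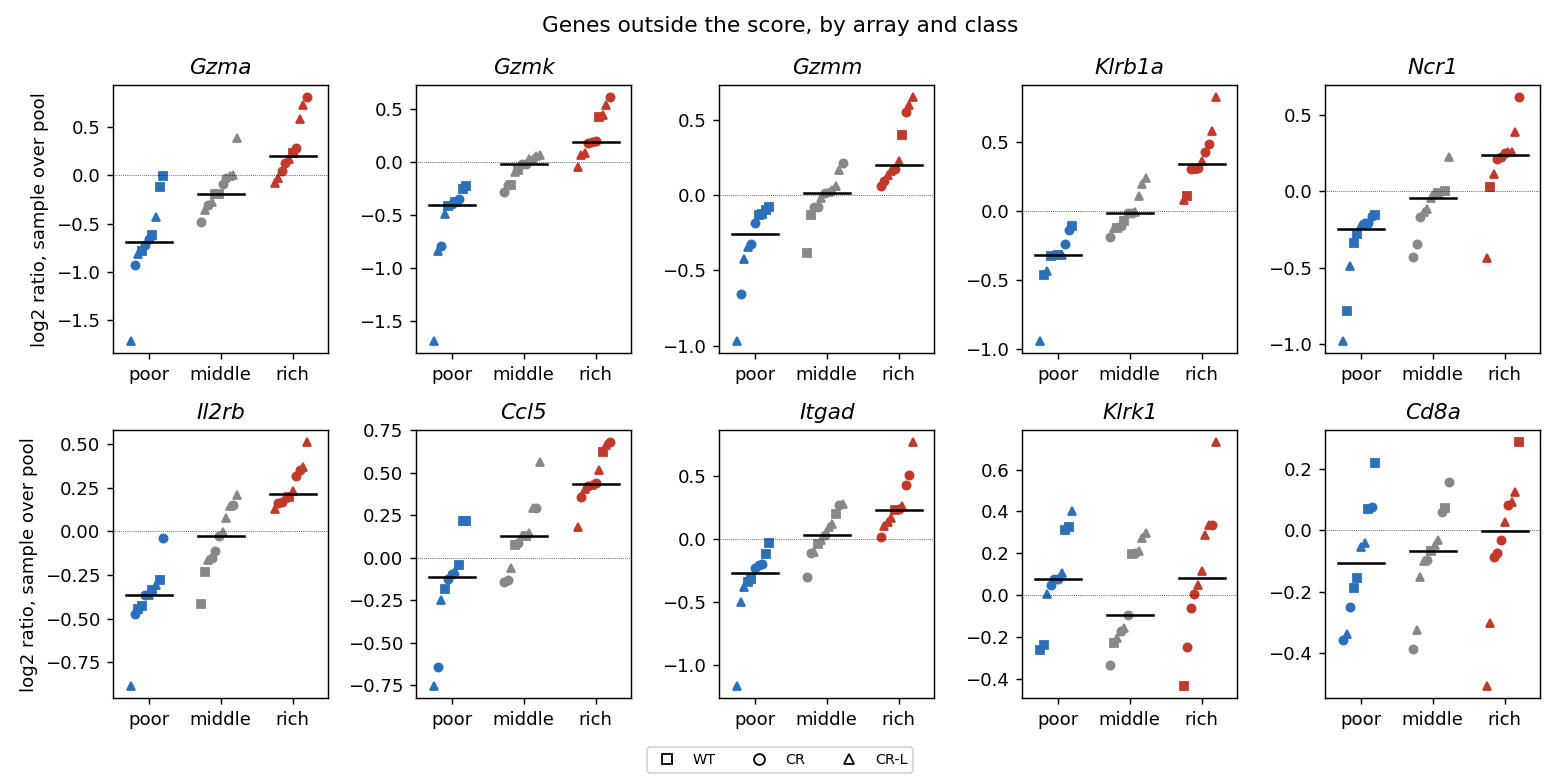
Log2 ratio of sample over pool (y axis) of 10 genes outside the score in the 10 poor, 11 middle and 10 rich arrays, with 1 symbol per array, shaped by study group, and a bar at the class median. Gzmk, Gzmm, Klrb1a, Il2rb and Itgad separate rich from poor arrays, and Klrk1 and Cd8a do not.

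Of 11 measured cytokines and cytokine receptors of NK cells, 4 were higher, and the list's median was 0.394. Il2rb, the shared beta chain of the interleukin 2 and 15 receptors, had the smallest p among the 101 features with a name. It ranged from 0.13 to 0.51 in rich arrays (median 0.21) and from -0.89 to -0.040 in poor ones (median -0.36), a difference of 0.65 ± 0.075 with no overlap (adjusted p = 0.000150). Ccl5, a chemokine stored in killer lymphocytes (chromosome 10, 71606089 to 71609018), ranged from 0.18 to 0.68 in rich and from -0.76 to 0.21 in poor arrays (0.65 ± 0.10, adjusted p = 0.00791). WT replicates 3 and 4 were the poor arrays that reached the rich range of Ccl5. Ccl4, a chemokine for monocytes and T cells, was higher by 0.60 ± 0.11 (adjusted p = 0.0117), and Il12rb1, a chain of the interleukin 12 receptor, by 0.45 ± 0.10 (adjusted p = 0.0384). Ifng, the interferon of activated NK and T cells, stood at 0.40 ± 0.10 (adjusted p = 0.0683) and Xcl1 at 0.39 ± 0.12 (adjusted p = 0.128). Ccl3 lay on the other side of 0 (-0.20 ± 0.15, adjusted p = 0.537), as did 2 others of the list.

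Signalling genes had smaller differences. Of 18 adaptors and kinases, Sh2d1a, the adaptor SAP of the SLAM receptors (0.39 ± 0.084, adjusted p = 0.0365), and Zap70, a kinase of T cell and NK receptors (0.37 ± 0.069, adjusted p = 0.0127), were higher, and the median was 0.105. Tyrobp, the DAP12 adaptor of activating NK receptors, stood at 0.36 ± 0.12 (adjusted p = 0.159), and Fcer1g at 0.18 ± 0.088 (adjusted p = 0.33). Of 12 transcription factors 1 passed, Runx3 (0.27 ± 0.054, adjusted p = 0.0209), which ranged from 0.057 to 0.41 in rich and from -0.25 to 0.13 in poor arrays. Tbx21, which encodes T-bet, stood at 0.21 ± 0.074 (adjusted p = 0.178). Ikzf3, a factor of B cells and other lymphocytes, stood at -0.26 ± 0.063 (adjusted p = 0.0522). Of 15 homing genes, Itga1, the alpha chain of a collagen-binding integrin, passed (0.53 ± 0.12, adjusted p = 0.0384). Itgam (0.64 ± 0.29), S1pr5 (0.32 ± 0.11), Cxcr3 (0.30 ± 0.13) and Cx3cr1 (0.20 ± 0.11), which guide NK cell traffic, did not pass (adjusted p from 0.184 to 0.393).

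Several of the largest higher genes stood on no list. Tmem204, a membrane protein, ranged from -0.42 to 0.999 in rich and from -0.79 to 0.31 in poor arrays (0.74 ± 0.17, adjusted p = 0.0385). Spint1, an inhibitor of serine proteases (0.72 ± 0.12), Gdf10, a growth factor of the TGF-beta family (0.69 ± 0.11), B3gnt7, a glycosyltransferase (0.68 ± 0.14), Tmsb15b2 of the thymosin beta family (0.64 ± 0.12) and Prxl2b (0.56 ± 0.11) were higher, with adjusted p from 0.00786 to 0.0223. Itgad, the alpha chain of a leukocyte integrin, separated the classes (0.018 to 0.77 against -1.17 to -0.032, difference 0.64 ± 0.11, adjusted p = 0.0117). Picked after their values were seen, the cytokine Il18 (0.50 ± 0.10), the nuclear receptor Rora (0.46 ± 0.077) and the adhesion molecule Mcam (0.55 ± 0.10) were also higher (adjusted p from 0.00900 to 0.0237). Of the 15 named genes with the largest increases, all but Tmem204 passed in each of the 20 fits without 1 array, and Tmem204 passed in 5.

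The direction of the leading genes was the same on each of the 4 slides that held both classes. Arrays of these slides also entered the comparison that picked the genes, so this agreement is not independent of it. Gzma differed by 0.52 to 1.76 within slides, Gzmk by 0.36 to 1.88, Klrb1a by 0.36 to 1.42, Il2rb by 0.46 to 1.06 and Ccl5 by 0.21 to 1.12. Each of the 5 was largest on slide 6, where 1 rich array (CR replicate 8) stands against 1 poor array (CR-L replicate 10). With slide as a fixed block Ccl5 (adjusted p = 0.117), Ccl4, Ncr1, B3gnt7, Prxl2b, Tmem204, Itga1, Klrb1c, Sh2d1a, Runx3, Zap70, Il12rb1 and Rora no longer passed, while Gzma, Gzmk, Gzmm, Klrb1a, Il2rb, Itgad, Spint1, Gdf10, Tmsb15b2, Il18 and Mcam did. With the study group as a covariate Ncr1 and Tmsb15b2 (both adjusted p = 0.0517), Zap70 (0.0592), Sh2d1a (0.106), Il18 (0.112), Klrb1c (0.128), Il12rb1 (0.131) and Tmem204 (0.149) no longer passed, and the other higher genes named above did.

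Of 8 measured MHC class II genes of the list, 3 were lower in rich arrays, and all 8 lay below 0 (median -0.715). RT1-DOb, the beta chain of the class II-like DO molecule of B cells (chromosome 20, 4755469 to 4755528), ranged from -1.37 to 0.34 in rich arrays (median -0.78) and from -0.25 to 0.71 in poor ones (median 0.39). CR replicate 2 and CR-L replicate 8 were the high rich arrays, and the difference was -0.95 ± 0.17, or 1.93-fold (adjusted p = 0.0117). RT1-Db1, a beta chain of the classical RT1-D molecule, fell from a poor median of 0.26 to a rich median of -0.77 (-0.76 ± 0.15, adjusted p = 0.0237). RT1-Db2, a near copy of it that the probe may not tell apart, was lower by a like amount (-0.85 ± 0.18, adjusted p = 0.0338), as was RT1-DOa, the DO alpha chain (-0.67 ± 0.15, adjusted p = 0.0384). RT1-Db2 was not on the class II list. RT1-Da, the alpha chain of RT1-D, stood at -0.52 ± 0.14 (adjusted p = 0.0737) and Cd74, the invariant chain, at -0.65 ± 0.15 (adjusted p = 0.0501).

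The RT1-B genes, named after their values were seen, spread over a wider range than the classes. RT1-Bb ranged from -5.17 to 1.34 in rich arrays (median -3.74) and from -4.47 to 1.63 in poor ones (median 0.79). Of the rich arrays 6 lay at -3.40 or lower, CR replicate 9 was the 1 poor array that did, and RT1-Bb did not pass (-2.99 ± 0.87, adjusted p = 0.107). RT1-Ba ranged from -2.13 to 1.51 and from -2.10 to 1.93 (-0.76 ± 0.59, adjusted p = 0.569).

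The class II promoters are shown because 4 of the lower genes share a known arrangement there. Class II genes are read through an X box and a Y box, bound by RFX and NF-Y, which sit at a near fixed distance. The letters AGCAAC (within the X box) and GATTGG (within the Y box) are in capitals, on the strand of the gene, with their starts 30 to 33 bases apart.
RT1-DOa: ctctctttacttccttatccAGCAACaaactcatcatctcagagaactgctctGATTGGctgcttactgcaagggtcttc
RT1-DOb: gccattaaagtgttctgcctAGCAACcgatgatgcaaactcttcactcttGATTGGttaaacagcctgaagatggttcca
RT1-Da: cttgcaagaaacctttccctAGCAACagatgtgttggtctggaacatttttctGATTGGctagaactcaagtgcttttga
RT1-Db1: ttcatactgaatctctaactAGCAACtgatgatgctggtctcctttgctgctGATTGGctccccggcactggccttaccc
RT1-Db2: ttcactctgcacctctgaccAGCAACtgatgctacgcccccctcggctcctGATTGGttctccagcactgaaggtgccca
These windows of 80 bases (RefSeq, GRCr8) lie at chr20:4758505-4758584, chr20:4627578-4627657, chr20:4515312-4515391, chr20:4560216-4560295 and chr20:4541685-4541764, RT1-Da on the plus strand and the others on the minus strand. The pair at that distance occurs in 8 of 27457 promoters (0.0291%), in 4 of the 20 lower features with a promoter in the table and in 0 of 56 higher ones. The allowed distance was set after these sequences had been read, and a match is a description of letters.

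B cell genes lay below 0 together. Of 18 measured, 18 were below 0 (median -0.529) and 1 passed, Fcer2, the low affinity IgE receptor of B cells (-0.71 ± 0.16, adjusted p = 0.0384). Fcer2 ranged from -1.40 to 0.0033 in rich arrays (median -0.71) and from -0.57 to 0.29 in poor ones (median 0.081). Cd79a, a chain of the B cell receptor, stood at -0.73 ± 0.18 (adjusted p = 0.0542). The immunoglobulin gene that the array names Igd (-0.70 ± 0.15) and Fcmr, the IgM receptor (-0.55 ± 0.13), were lower (adjusted p = 0.0380 and 0.0393). So were, named after their values were seen, the B cell factor Bach2 (-0.32 ± 0.068) and the cannabinoid receptor Cnr2 (-0.55 ± 0.12).

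The other lower genes were of several kinds. Lax1, a membrane adaptor that restrains lymphocyte signalling, ranged from -1.62 to 0.13 in rich and from -0.26 to 0.63 in poor arrays (-0.88 ± 0.19, adjusted p = 0.0344). Cd69, an early activation marker, ranged from -1.26 to 0.34 and from -0.059 to 0.52 (-0.72 ± 0.16, adjusted p = 0.0384). Birc3, an NF-kB target that restrains cell death, was lower too (-0.62 ± 0.14, adjusted p = 0.0354). Cd69 and Birc3 were the called members of 23 measured on the NF-kB and immediate early list (median -0.185). Rpl10a-ps1, named by an older symbol and a ribosomal pseudogene (-0.89 ± 0.17), Ciart, a repressor of the circadian clock (-0.63 ± 0.15), Mns1 (-0.57 ± 0.10), Dnph1 (-0.56 ± 0.12) and Plekho1 (-0.55 ± 0.11) were lower too, with adjusted p from 0.0117 to 0.0435.

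The lower genes held less well than the higher ones across fits. Of the 15 named genes with the largest decreases, RT1-DOb, Rpl10a-ps1 and Mns1 passed in each of the 20 fits without 1 array, and the others in 5 to 16. With the study group as a covariate or with slide as a fixed block none of the 15 passed, and RT1-DOb went to -0.92 (adjusted p = 0.0517) and -0.87 (adjusted p = 0.179). RT1-DOb lay below 0 on each of the 4 slides (-1.43 to -0.60), as did RT1-Db1 (-1.09 to -0.047) and Lax1 (-1.21 to -0.10), and Fcer2 on 3 of 4. As for the higher genes, these slides hold arrays that the comparison used.

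**Figure D3:**
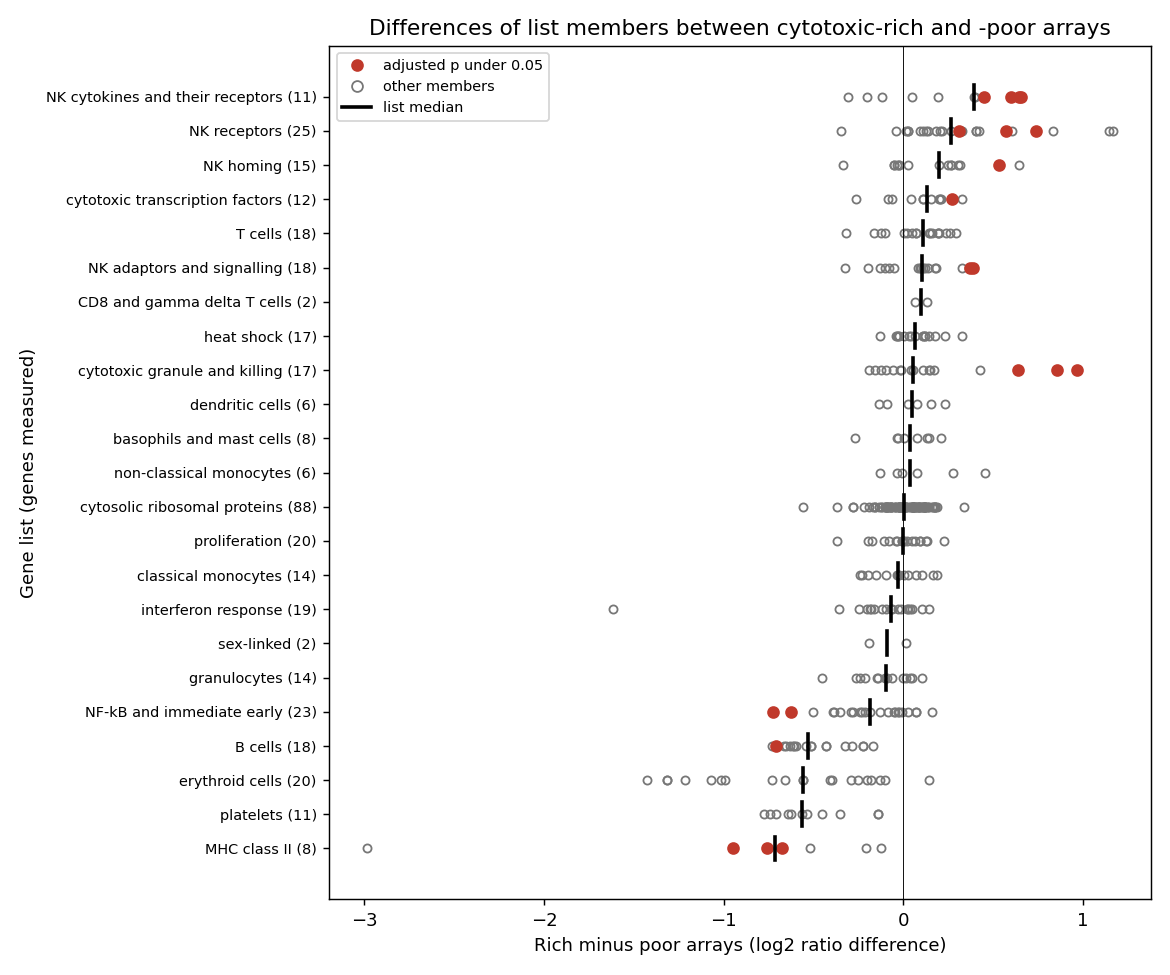
Difference between rich and poor arrays (log2, x axis) of each measured member of 23 gene lists (y axis, ordered by list median), with filled points for an adjusted p under 0.05 and bars for list medians. Filled points stand above 0 in 6 NK and cytotoxic lists and below 0 in the MHC class II, B cell and NF-kB lists.

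The B cell list mean ranged from -0.855 to 0.328 in rich arrays (median -0.409) and from -0.199 to 0.334 in poor ones (median 0.193). It was lowest in CR replicate 6 and CR-L replicates 5 and 2, and highest among rich arrays in CR-L replicate 8. With this mean as a covariate 24 features passed, all higher. Gzma, Gzmk, Gzmm, Klrb1a, Ncr1, Il2rb, Ccl5, Itgad and Prxl2b passed there, and no lower feature did. Of the 156 features, 20 passed.

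Platelet and erythroid genes lay below 0 in rich arrays, and no member passed. Of 11 platelet genes 11 lay below 0 (median -0.566), with Pf4, a platelet chemokine, at -0.74 ± 0.50 (adjusted p = 0.497). The platelet mean was -2.88 in CR-L replicate 3 and -2.45 in CR-L replicate 7, the 2 highest scores, and from -0.67 to 0.573 in the other rich arrays, against -1.52 to 0.788 in poor ones. Without these 2 arrays 36 features passed (32 higher, 4 lower). Of 20 erythroid genes 19 lay below 0 (median -0.558), among them Slc4a1, the anion exchanger of red cells (-1.43 ± 0.52, adjusted p = 0.189), and Ahsp, a globin chaperone (-1.32 ± 0.49, adjusted p = 0.197). Their mean ranged from -1.42 to 0.143 in rich and from -0.772 to 1.13 in poor arrays. With the erythroid mean as a covariate 34 features passed (33 higher, 1 lower), and with the platelet mean 175. The part of these cells in the result was not tested beyond these fits.

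No T cell or monocyte gene passed, though the T cell median was near the 0.143 of the 100 NK and cytotoxic genes. Of 18 T cell genes 14 lay above 0 (median 0.109) and none passed over all features (adjusted p = 0.0930 for Cd3d at 0.26 ± 0.073, with Cd6 at 0.29 ± 0.088 and Trat1 at 0.24 ± 0.071). The T cell list mean ranged from -0.106 to 0.225 in rich and from -0.168 to 0.173 in poor arrays. Medians were -0.0264 for 14 classical monocyte genes, 0.0363 for 6 non-classical monocyte genes and -0.0959 for 14 granulocyte genes, with no member past the threshold. The interferon response (19 genes, median -0.0694), proliferation (20, 0.000581), heat shock (17, 0.0666) and ribosomal lists (88, 0.00493) had none either. Dendritic cell and basophil genes (6 and 8, medians 0.0506 and 0.0401) and the 2 Y-linked genes measured (median -0.0883) did not pass. Both Y-linked genes were well above background on all 31 arrays. Their mean lay from -0.305 to 0.127 in rich and from -0.12 to 0.261 in poor arrays. Whether the arrays mix both sexes was not tested.

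**Figure D4:**
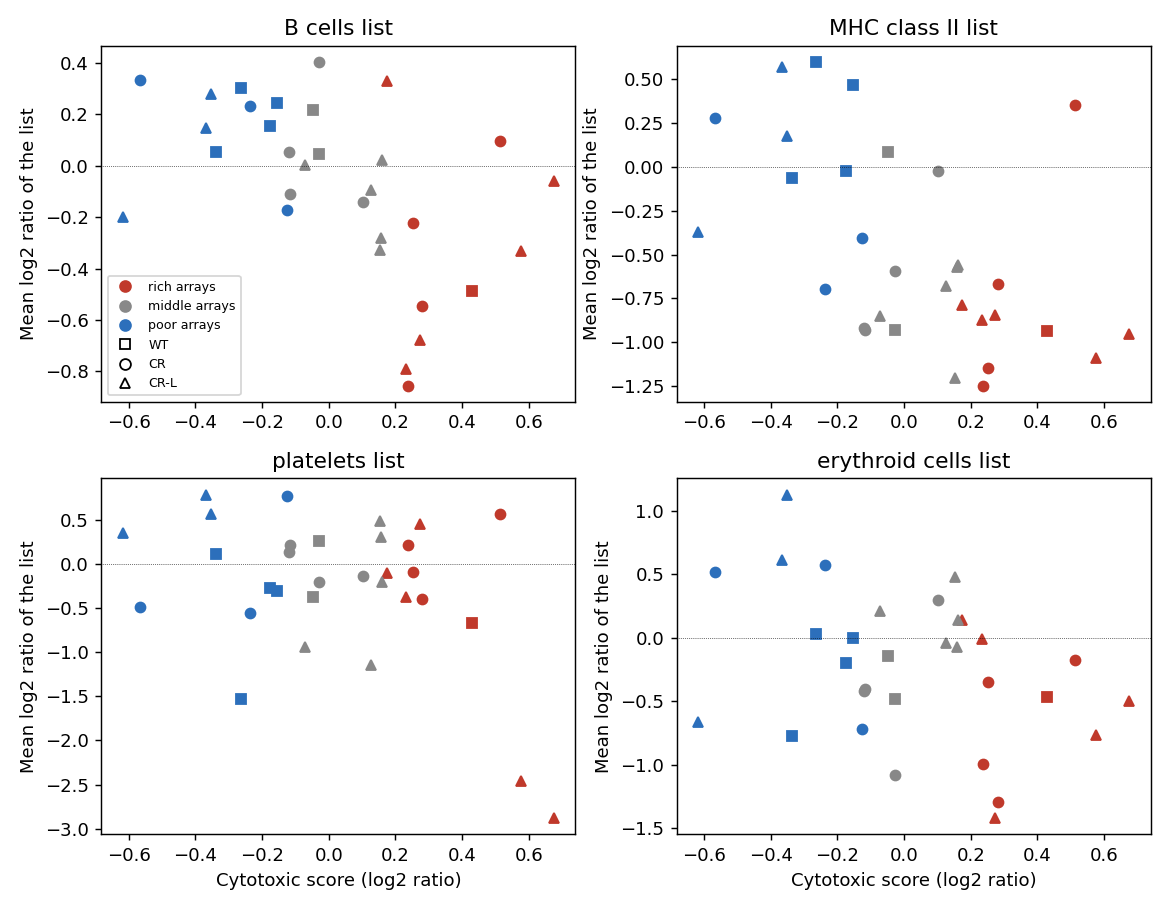
Mean log2 ratio of the B cell, MHC class II, platelet and erythroid lists (y axes) against the cytotoxic score (log2, x axes) of the 31 arrays, coloured by class and shaped by study group. B cell means of rich arrays reach down to -0.855, CR replicate 2 is the rich array with a high class II mean (0.352), and CR-L replicates 3 and 7 stand apart in platelets (-2.88 and -2.45). The class II mean includes RT1-Ba and RT1-Bb, which range widely.

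The 11 middle arrays, which the comparison did not use, gave the same measure over a narrow range of scores (-0.12 to 0.16). No feature had a slope on the score past the threshold there (limma; 929 features, 4.19%, at an unadjusted p under 0.05), and 0 passed without the bright WT replicate 6 as well. The slopes of the 156 features ran the same way for most. Of the 109 higher features 101 (92.7%) had a slope above 0 and of the 47 lower ones 45 (95.7%) below 0, against 53.3% of all features with the same sign in both. Features can vary together across arrays, so these counts are not that many separate observations, and all rest on the same 11 arrays. At an unadjusted p under 0.05 and in the same direction stood 14 of the 109 and 18 of the 47. Among them were Gzma (slope 1.45 ± 0.45), Gzmk (0.95 ± 0.25), Klrb1a (1.02 ± 0.28) and Il2rb (1.13 ± 0.39), in log2 ratio per log2 unit of score. Ccl5 (0.19 ± 0.53) and B3gnt7 (0.13 ± 0.52) stayed near 0, and Tmsb15b2 lay below 0 by less than its SE (-0.47 ± 0.85).

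Lists did not all keep their direction in the middle arrays. All 11 arrays, the bright WT replicate 6 included, entered these slopes, and members of a list can vary together. NK receptors had slopes above 0 in 21 of 25 genes (median 0.678), and the 100 NK and cytotoxic genes in 78 (median 0.355), against 54.6% of all features (median 0.0465). T cell genes had slopes above 0 in 17 of 18 (median 0.425). B cell genes were below 0 in 17 of 18 (median -1.13) and class II genes in 6 of 8 (median -0.84). Erythroid genes, below 0 between the classes, had slopes above 0 in 19 of 20 here (median 2.20), and platelet genes in 6 of 11 (median 0.119). Granulocyte genes, with a median of -0.0959 between the classes, had slopes above 0 in 12 of 14 (median 1.15). Ribosomal genes, near 0 between the classes (median 0.00493), had slopes below 0 in 71 of 88 (median -0.265).

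**Figure D5:**
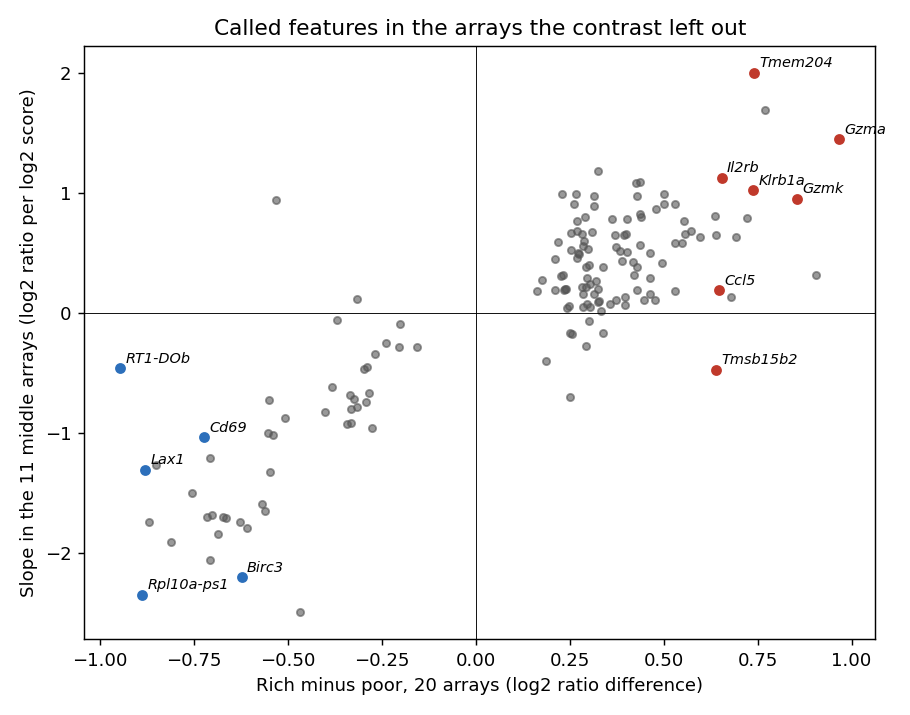
Slope on the cytotoxic score in the 11 middle arrays (log2 ratio per log2 score, y axis) against the difference between rich and poor arrays (log2, x axis) for the 156 called features, 12 of them named and coloured by direction. Most points lie in the upper right and lower left, with Tmsb15b2 below 0.

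Whether the relation to the score differed between CR-L and CR arrays was tested over the 24 arrays of these groups. No feature passed (limma), and 1440 (6.49%) had an unadjusted p under 0.05.

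Between the study groups themselves, few NK and cytotoxic genes differed. The comparisons share arrays, CR and CR-L being set against the same WT. Of 104 genes, the 4 score genes included, 0 differed between CR and WT (105 of all features, 0.473%), 4 between CR-L and WT (787, 3.55%) and 0 between CR-L and CR (0 of all features, and 515, 2.32%, at an unadjusted p under 0.05; limma). The share of 4 in 104 is near that of all features. The 4 were the chemokine Ccl3 (-0.72 ± 0.15, adjusted p = 0.00465) and the cytokine Tnf (-0.22 ± 0.062, adjusted p = 0.0407), lower in CR-L, and the exchange factor Vav1 (0.23 ± 0.053, adjusted p = 0.0115) and the chemokine receptor Cxcr3 (0.54 ± 0.11, adjusted p = 0.00468), higher in CR-L. Ccl3 and Cxcr3 passed under each of the 5 alternatives run for the groups. Tnf passed under none of them, and Vav1 did not pass in the series table or with the replicate number as a block. None of these 4 passed between rich and poor arrays. Prf1 stood at 0.23 ± 0.15, Gzmb at 0.098 ± 0.21, Nkg7 at 0.047 ± 0.15 and Klrd1 at 0.33 ± 0.12 in CR-L against WT (adjusted p from 0.122 to 0.92). Il2rb stood at 0.29 ± 0.14 (adjusted p = 0.275) and Gzma at 0.098 ± 0.24 (adjusted p = 0.892). With the score as a covariate 486 of all features passed between CR-L and WT.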

How the data were processed

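Each deposited scanner file holds 1 array. Per the file headers it lists, for every spot, red and green intensity, local background intensity and a log10 ratio of red over green, read by Agilent Feature Extraction (10.7.3.1 in the submitters' processing notes). Per the labels, Cy5 (red) marked a sample and Cy3 (green) the pool, with no dye swap. A series table of log2 values was also deposited. How the authors made it is not stated; per array it tracked log2 red intensity (lowest correlation 0.993) around a common median, and whether it was normalized further is unknown.

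The score is the mean deposited log10 ratio of the 4 genes, converted to log2. For all else, intensities were background-corrected with limma 3.58.1 (R 4.3.3; normexp, offset 50) and loess-normalized within arrays. Control and outlier spots were left out. A probe was kept if red was flagged above background on 7 or more of the 31 arrays, and the brightest probe stood for a gene. Names were updated through RefSeq (GRCr8). Probe positions are those of the files (rn4); whether they fall in coding sequence or a UTR was not analysed here.

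Tests were limma's lmFit and eBayes, two-sided, Benjamini-Hochberg over all features, threshold 0.05. The class test was also run on simulated data with independent noise for each gene and array. Such data hold no shared litters, slides or cell types, so they cannot show how these affect the p-values. The members and lists were chosen with earlier results of these data known. Genes could be named as the 15 largest differences per direction among called features with an established symbol, as members of 7 NK and cytotoxic lists, or as up to 4 with the smallest p of another list, and not all are reported here. Arrays that share a replicate number correlated from -0.426 to 0.446 (25 pairs, median 0.0425, 7 of them over 0.1). Pairs with different numbers were not set beside these, so whether the numbers pair samples is not known. Alternatives covered background, normalization, filter, probe choice, slide, group, score genes and single arrays. The number of arrays limits the precision.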

Additional observations from a re-analysis of the deposited data

Results flagged for a closer look

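Within the 10 poor arrays, CR-L replicate 10 lay far below the others for 6 of the named genes, at -1.69 for Gzmk (next -0.841), -0.943 for Klrb1a (next -0.467), -1.07 for Spint1, -0.887 for Il2rb, -1.17 for Itgad and -1 for Prxl2b. CR-L replicate 10 also had the lowest score of all arrays (-0.617), so low values of genes that go with the score are partly given by the choice of arrays. Without this array 110 features passed in place of 156. Other poor arrays stood apart for single genes: CR-L replicate 13 for Fcer1g (0.396) and S1pr5 (0.304), WT replicate 4 for Tnf (0.381), CR replicate 9 for RT1-Bb (-4.47, next 0.19), and CR replicate 3 for the heat shock list mean (0.561).

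Among the 10 rich arrays, CR replicate 2 was far above the others for RT1-Ba (1.51, next -0.497) and for the MHC class II list mean (0.352, next -0.669). That mean includes RT1-Ba and RT1-Bb. CR-L replicate 5 was lowest in the means of the NK homing list (-0.305) and of the Y-linked genes (-0.305), and WT replicate 1 was highest in the ribosomal list mean (0.373). In all, 16 of 208 sets of 10 arrays (7.69%) held such a gap by Dixon's criterion. For independent, normally distributed values chance gives about 1 in 20. The sets here share arrays that were picked by the score, so that rate is only a rough guide.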

How the results depend on the processing

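Between rich and poor arrays 156 features passed. The count was 268 with no background correction, 235 from the red channel alone, 250 in the authors' series table, 274 with all 31 arrays in 3 classes and 1 with the 5 highest against the 5 lowest scores. It was 46 with slide as a fixed block, 31 with the study group as a covariate, and 1515 (791 higher, 724 lower) with the share of red spots well above background as a covariate. It was 517 (239 higher) with Nkg7 left out of the score, 288 (130 higher) with Klrd1 left out, and 484 (267 higher) with loess ratios in the score. Alternatives chosen after seeing the data gave 36 without CR-L replicates 3 and 7, 24 with the B cell list mean and 34 with the erythroid list mean as a covariate. Leaving out 1 array gave 65 to 360. The other 10 alternatives gave 128 to 187.

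With the replicate number as a block, 9 features passed between the classes, in a fit that left 7 residual degrees of freedom. The same block gave 241 between CR and WT (105 without it) and 920 between CR-L and WT (787). In the series table the group counts were 0 for CR against WT and 498 for CR-L against WT, and with the score as a covariate 486 for CR-L against WT. Counts for CR-L against CR, the middle arrays and the slopes of CR-L and CR were 0 under each alternative run.

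Reversals touched genes that had not passed. Klrk1 (0.026) went to -0.0859 with slide, -0.052 with group, -0.136 with 5 against 5, -0.0179 without Nkg7, -0.124 without Klrd1, -0.108 with the B cell and -0.0259 with the erythroid covariate, and to between -0.0424 and 0.0872 without 1 array. Cd8a went to -0.00205 with slide, Cd8b to -0.0345 with the B cell covariate and Ccl3 to 0.0324 with 5 against 5. Of the other values of single genes, 1516 kept direction and side, 270 lost and 102 gained the threshold, leave-1-out fits aside. The cause of each change was not tested, except that smaller classes hold fewer arrays. Depth is bounded by signal over background, and dim genes outside the filter were not tested.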
